A study of Homo sapiens with 6 samples.

Results

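The AP-1 transcription factors described here are 10 genes of the FOS, JUN, BATF and small MAF families (FOS, FOSB, FOSL1, FOSL2, JUN, JUNB, JUND, BATF3, MAFF and MAFG), taken by gene symbol from a deposited table of 54308 genes. RNA sequencing had been done in 143B, a human osteosarcoma cell line, cultured with 15% fetal bovine serum in every group. The vector control (VC) cells had been transfected with a control plasmid, the CNTNAP4 knockout (KO) cells with a plasmid for CRISPR/Cas9 deletion of CNTNAP4, and per the labels each transfection lasted 48 h. The methods give a longer incubation with the plasmid, followed by sorting and colony growth, and do not state the time from transfection to RNA. The plasmid backbone, which carries Cas9 and a red fluorescent protein, was shared by both groups, and per the methods the sequenced cells were clonal, grown from sorted red cells. Each group had 3 libraries described as biological replicates. The labels do not tie a library to a colony, so the p-values measure the spread between these samples, and what comes from the deletion and what comes from picking a colony cannot be told apart.

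AP-1 is not a single protein but a set of dimers built from basic leucine zipper proteins, which grip each other through the zipper and touch DNA with the basic region. JUN proteins can pair with themselves, whereas FOS proteins need a JUN partner, and the dimers bind the TPA response element TGANTCA and, for some pairs, the cyclic AMP response element TGACGTCA. In bone AP-1 is known for its part in osteoblast and osteoclast formation, and mice that overexpress c-Fos develop osteosarcoma. Many of these genes are immediate early genes, switched on within minutes of a growth or stress signal, and kinases of the MAPK family act on both their promoters and their proteins.

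Promoter sequences are shown because the members that rose and those that did not could be set side by side at the same kind of element. RefSeq promoters (GRCh38.p14) were found for 8 of the 10 members, in 9 windows of 250 bases before the RefSeq start. FOSL1 and BATF3 had no entry in the table used. The letters searched on both strands were TGANTCA, TGACNTCA (the full cyclic AMP response element and its variants at the middle base), TGACGT (its core, which lies inside TGACGTCA), TATAAA, and the CArG box bound by serum response factor. In the 30-base stretches that follow, 5′ to 3′ on the strand of the gene, capitals mark TGACNTCA where it was present and TGACGT otherwise.
JUN, chr1:58784096-58784125, minus strand: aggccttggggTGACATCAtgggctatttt
MAFF, chr22:38201929-38201958, plus strand: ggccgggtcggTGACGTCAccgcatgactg
JUND, chr19:18281804-18281833, minus strand: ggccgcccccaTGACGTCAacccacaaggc
FOS, chr14:75278752-75278781, plus strand: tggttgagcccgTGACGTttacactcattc
FOSB, chr19:45467924-45467953, plus strand: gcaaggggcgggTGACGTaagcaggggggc
FOSL2, chr2:28392780-28392809, plus strand: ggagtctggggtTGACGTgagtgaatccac

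TGACNTCA was found in 3 of the 8 members and in 6.87% of all 35116 promoter windows of that length. Here and below, a member was counted if any of its windows held the motif, whereas the shares are per window. The motif began 67 bases before the RefSeq start of JUN, 54 before that of MAFF and 200 before that of JUND. The gene positions given further below are from GENCODE, whose starts differ from those of RefSeq for some members. By those positions the stretches printed for JUN, MAFF and FOSL2 lie inside the genes. MAFF also had another window (chr22:38202770-38203019), which held none of the motifs searched, and neither did the window of MAFG. TGACGT was found in 5 members, FOS, FOSB, FOSL2, JUND and MAFF, against 7.1% of all windows. TGANTCA, held by 6.57% of all windows, and the CArG box, held by 1.16%, were found in none of the members' windows, which says only that these letters are not in the 250 bases searched. TATAAA stood 33 bases before the RefSeq start of FOS, 30 before that of FOSB and 31 before that of JUNB. It was held by 10.7% of all windows. The promoters of JUNB, which rose in KO, and JUND, which was not called, are given whole, with the motifs found in capitals (TATAAA in JUNB, and TGACGTCA and the reverse of the core in JUND).
JUNB, chr19:12791236-12791485, plus strand: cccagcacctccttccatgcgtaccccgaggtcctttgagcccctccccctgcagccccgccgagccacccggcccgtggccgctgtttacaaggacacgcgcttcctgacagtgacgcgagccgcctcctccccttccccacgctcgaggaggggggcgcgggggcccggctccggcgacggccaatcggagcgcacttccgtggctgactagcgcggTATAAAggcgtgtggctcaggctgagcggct
JUND, chr19:18281623-18281872, minus strand: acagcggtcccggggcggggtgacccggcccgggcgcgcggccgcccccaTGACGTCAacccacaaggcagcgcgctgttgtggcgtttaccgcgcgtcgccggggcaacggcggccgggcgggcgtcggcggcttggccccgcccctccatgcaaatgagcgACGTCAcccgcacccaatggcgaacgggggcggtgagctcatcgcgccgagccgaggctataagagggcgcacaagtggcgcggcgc

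The deposited values are log2 signals that the authors had quantile-normalized between libraries, so that each library runs from -10.87 to 12.04. The number of reads behind a value is unknown. Since the linear unit is not named, levels are not compared between genes, except in the marker sums below, which depend on that unit. In each library 20333 to 21041 genes had a value, and the targeted gene, CNTNAP4, was listed with a signal (-7.18) only for VC replicate 3, so its deletion could not be checked here. Pearson's r across the 17698 genes with 6 values ranged from 0.990 to 0.992 within VC, from 0.985 to 0.990 within KO and from 0.964 to 0.981 across groups, with KO replicate 2 the farthest from VC. Of 10 mesenchymal and bone markers tested, 5 were higher (FN1, COL1A1, SPARC, ALPL and SPP1) and 1 was lower (COL1A2) in KO. Over all genes tested, 13.1% were higher and 19.8% lower at an adjusted p under 0.05. The summed signal of this marker list was 10.5 to 10.7 in VC and 10.8 to 11.1 in KO on the log2 scale. Vimentin (VIM), a mesenchymal marker, made up most of that sum, with log2 signals of 10.3 to 10.5 in VC and 10.6 to 10.9 in KO. VIM was not called (limma adjusted p = 0.0667). RUNX2, the bone lineage factor, lay between 1.30 and 1.69, while the late osteoblast marker BGLAP had values in KO replicates 1 and 2 alone. Of the 5 epithelial markers tested, 1 was higher (KRT8) and 2 were lower (EPCAM and CLDN4) in KO. Their list had a summed signal of 9.17 to 9.32 in VC and 9.11 to 9.25 in KO on the log2 scale. KRT18, which was not called (limma adjusted p = 0.0853), made up most of that sum, with 8.92 to 9.06 in VC and 8.63 to 8.87 in KO. Mean log2 signals in VC and KO were 6.61 and 7.20 for KRT8, 1.71 and 1.04 for EPCAM, and -2.66 and -4.55 for CLDN4. The mesenchymal COL1A2 had -4.81 and -5.62. CDH1 had a value in VC replicate 2 alone. Of 9 blood and endothelial markers 8 had a value, 5 were tested and 0 were called (0 also at an unadjusted p under 0.05 and without moderation), and they summed to a linear signal of 0.249 to 0.303 in VC and 0.0889 to 0.129 in KO. Of the markers called, SPP1 alone kept its call in all 6 fits that left out 1 library. The part of these markers in the results was not tested.

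Of the 10 members, 5 were higher and 1 was lower in KO at an adjusted p under 0.05 in limma's moderated test (called). Over all 19306 genes tested, 32.9% were called, 13.1% higher and 19.8% lower. The median log2 fold change, always KO against VC, was 0.27 over the members and -0.13 over all genes. The rises were in JUN and JUNB, in the small MAF genes MAFF and MAFG, and in FOS, and the fall was in FOSL2. MAFF and JUNB were the members called with a change of at least 2-fold, as were 9.53% of all genes tested. All 10 members had a value in every library, and the KO and VC values did not overlap in 7 of them, against 59.3% of all genes with 6 values. KO was above VC in 5 of these (22.6% of all genes) and below it in FOSL1 and FOSL2 (36.7%). In bulk RNA a change in every cell and a change in the share of cells that express a gene cannot be told apart.

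**Figure D1:**
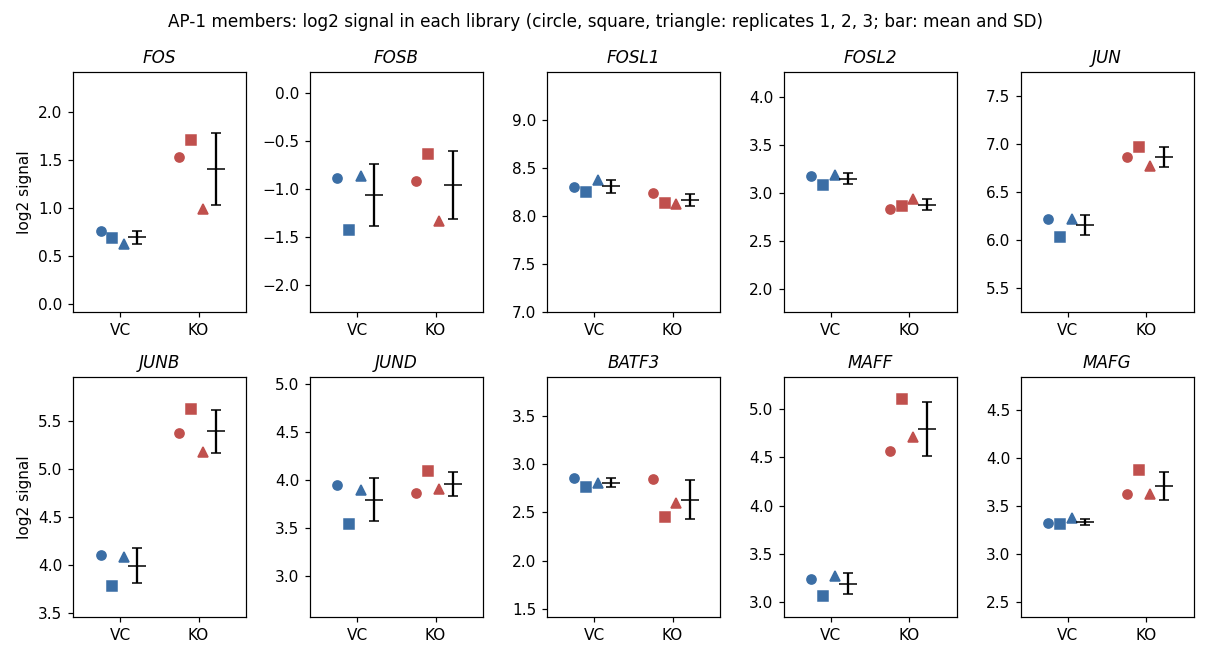
Log2 signal (vertical axis, the same span of 2.5 in every panel) of each AP-1 member in the 3 VC libraries (blue) and the 3 KO libraries (red), with the mean and SD in black. KO and VC values are apart in JUN, JUNB, MAFF, MAFG, FOS, FOSL2 and, narrowly, FOSL1, and overlap in FOSB, JUND and BATF3.

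In the JUN family, whose proteins are the obligate partners of FOS proteins, JUN and JUNB rose and JUND was not called. JUN encodes c-Jun, the classical substrate of JNK, and lies on chromosome 1 (58780788 to 58784327, minus strand, GRCh38, GENCODE). In replicate order, the order used for all values that follow, the VC libraries had log2 signals of 6.22, 6.03 and 6.22. The KO libraries had 6.86, 6.97 and 6.76. The lowest KO value was 0.55 above the highest VC value. The VC mean was 6.15 ± 0.11 and the KO mean 6.86 ± 0.10 (SD, n = 3 each), so JUN was 1.63-fold higher (log2 fold change 0.71, standard error 0.095, limma adjusted p = 0.0107).

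JUNB lies on chromosome 19 (12791496 to 12793315, plus strand) and encodes a partner that in many settings counters the growth-promoting activity of c-Jun. VC libraries had log2 signals of 4.11, 3.78 and 4.08, and KO libraries had 5.37, 5.62 and 5.18. The groups were separated by 1.07, a gap larger than the range within either. The log2 fold change was 1.40 (standard error 0.16, adjusted p = 0.00891), with a 95% interval of 1.01 to 1.79, or 2.64-fold. HOOK2, which overlaps JUNB on the other strand, had a log2 fold change of 0.18 and was not called (adjusted p = 0.367).

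JUND, the family member usually kept at a steady level in resting cells, lies on chromosome 19 (18279760 to 18281622, minus strand). Its log2 signals were 3.95, 3.54 and 3.90 in VC and 3.87, 4.10 and 3.90 in KO. KO replicates 1 and 3 lay within the VC range. The log2 fold change was 0.16 with a 95% interval of -0.19 to 0.51 (adjusted p = 0.406), which leaves room for changes of 0.876-fold to 1.42-fold.

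Within a library, the log2 difference between JUNB and JUND is not affected by a constant shift of a library. JUNB minus JUND was 0.16, 0.24 and 0.18 in VC and 1.499, 1.53 and 1.27 in KO. JUN minus JUND went from a mean of 2.36 ± 0.11 (SD, n = 3) to 2.91 ± 0.074 (SD, n = 3), and JUN minus JUNB from 2.16 ± 0.073 to 1.47 ± 0.12 (SD, n = 3). None of these 3 differences overlapped between the groups, so JUNB rose by more than JUN and JUN by more than JUND in every comparison of a KO with a VC library. Each had a two-sided p of 0.1 in an exact permutation test, the smallest that 3 against 3 allow, and 0.129 after adjustment over the 9 pairs compared in the FOS and JUN families.

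The small MAF proteins carry a leucine zipper and bind DNA but lack a domain of their own for activating transcription, and they pair with NFE2L and BACH factors at antioxidant response elements. MAFF lies on chromosome 22 (38200767 to 38216511, plus strand). Its log2 signals were 3.23, 3.06 and 3.27 in VC and 4.57, 5.11 and 4.71 in KO. With a gap of 1.30 between the groups, MAFF had the largest log2 fold change of the 10 members, 1.61 (standard error 0.16, 95% interval 1.20 to 2.02, adjusted p = 0.00815), or 3.05-fold. PLA2G6, which overlaps MAFF on the other strand, was also higher in KO (log2 fold change 0.89, adjusted p = 0.0195), a call lost without VC replicate 2 (0.0587), VC replicate 3 (0.0622) or KO replicate 3 (0.0502). A stranded library kit is named in the labels, but whether reads were counted by strand is not stated. Reads of this gene pair, and of the other overlapping pairs named, may therefore not be told apart. For MAFG and SIRT7, which share a strand, counting by strand would not separate reads from the overlap.

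MAFG lies on chromosome 17 (81918270 to 81927714, minus strand). Log2 signals of 3.33, 3.31 and 3.38 in VC and 3.63, 3.88 and 3.62 in KO put MAFG 1.29-fold higher (log2 fold change 0.37, standard error 0.095, adjusted p = 0.0369). KO replicate 2 was the highest library and the KO values spread more than the VC values (SD 0.14 against 0.033). The call was lost without VC replicate 1 (adjusted p = 0.108), VC replicate 2 (0.0948), VC replicate 3 (0.0980) or KO replicate 3 (0.0747), with log2 fold changes of 0.29 to 0.41 over all 6 fits without 1 library. Neither SIRT7, which overlaps MAFG on the same strand (-0.094), nor the divergent transcript MAFG-DT (-0.074) was called.

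The FOS family split: FOS rose, FOSL2 fell, and FOSB and FOSL1 were not called. FOS encodes c-Fos, the prototype immediate early protein, and lies on chromosome 14 (75278774 to 75282230, plus strand). Its log2 signals were 0.77, 0.69 and 0.63 in VC and 1.54, 1.71 and 0.99 in KO. KO replicate 3 lay only 0.22 above the highest VC library, and the KO spread was 0.37 (SD, n = 3) against 0.070 in VC. The log2 fold change was 0.72 (standard error 0.20, 95% interval 0.21 to 1.22, adjusted p = 0.0449), or 1.64-fold. An adjusted p under 0.05 was kept only without KO replicate 3 (0.0304). The adjusted p was 0.103, 0.107 and 0.121 without VC replicates 1, 2 and 3, 0.0834 without KO replicate 1 and 0.0922 without KO replicate 2.

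FOSB, the close relative of FOS that is known for lasting induction in neurons, lies on chromosome 19 (45467995 to 45475179, plus strand). Log2 signals of -0.89, -1.43 and -0.87 in VC and -0.91, -0.63 and -1.32 in KO overlapped. The log2 fold change was 0.11 with a 95% interval of -0.51 to 0.72 (adjusted p = 0.760), the widest interval of the 10 members, and its sign turned without VC replicate 2 (-0.078) or KO replicate 2 (-0.057). ERCC1, which overlaps FOSB on the other strand, was higher in KO (0.47, adjusted p = 0.0207), a call lost without VC replicates 1, 2 or 3 (0.0654, 0.0638 and 0.0736) or KO replicate 3 (0.0625). Reads of FOSB and ERCC1 may not be told apart.

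FOSL1 encodes FRA-1, whose level in tumour cells is known to follow ERK activity and which acts in invasion. It lies on chromosome 11 (65892049 to 65900573, minus strand). Log2 signals were 8.30, 8.25 and 8.37 in VC and 8.24, 8.13 and 8.13 in KO. Every KO value was below every VC value, but by a margin of only 0.0074. The log2 fold change of -0.14 (standard error 0.075, 95% interval -0.33 to 0.046) did not pass the test (adjusted p = 0.189) and lay close to the median of all genes. The interval corresponds to 0.795-fold to 1.03-fold.

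FOSL2 encodes FRA-2, which acts in bone and cartilage formation, and lies on chromosome 2 (28392448 to 28417312, plus strand). VC libraries had log2 signals of 3.18, 3.09 and 3.19 and KO libraries had 2.84, 2.87 and 2.94. The highest KO library lay 0.14 under the lowest VC library. FOSL2 fell by 0.27 on the log2 scale (standard error 0.071, adjusted p = 0.0402), to 83.0% of VC, which is 0.14 below the median change of all genes. With each library centred on its median over the 17698 genes with 6 values, the log2 fold change was -0.19 and the call was lost (adjusted p = 0.123). Of the fits without 1 library, only that without KO replicate 1 kept the call (0.0469). The adjusted p was 0.128, 0.0699 and 0.133 when VC replicates 1, 2 and 3 were dropped and 0.0766 and 0.0823 when KO replicates 2 and 3 were. FLJ31356, which overlaps FOSL2 on the other strand, had no value in KO replicate 2. Its log2 fold change was -1.73, and it was not called (limma adjusted p = 0.142).

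In the FOS family, FOS minus FOSL2 within a library averaged -2.45 ± 0.095 in VC, and the KO average was -1.47 ± 0.42 (SD, n = 3 each). The shift was 0.98, with no overlap between groups. FOS minus FOSL1 shifted by 0.86 and FOS minus FOSB by 0.61, again without overlap. Of the 6 pairs in this family, the 4 without overlap had the smallest possible exact permutation p of 0.1 (two-sided, 0.129 adjusted over the 9 pairs), and FOSB minus FOSL1 and FOSB minus FOSL2 had p = 0.4 and p = 0.3 in the same exact test.

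BATF3, a short partner of JUN proteins that is known for its role in dendritic cells, lies on chromosome 1 (212686418 to 212699985, minus strand). Log2 signals were 2.86, 2.76 and 2.81 in VC and 2.85, 2.45 and 2.59 in KO. KO replicate 1 lay among the VC values. The log2 fold change was -0.18 with a 95% interval of -0.48 to 0.12 (adjusted p = 0.287). Without KO replicate 1 it was -0.29 and BATF3 was called (adjusted p = 0.0413).

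**Figure D2:**
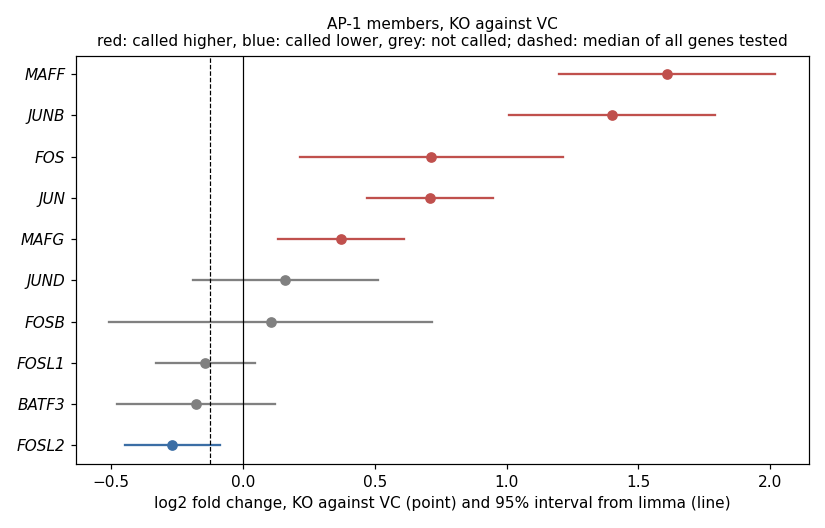
Log2 fold change of each AP-1 member, KO against VC (horizontal axis), as points with the 95% interval from limma as lines, ordered by size. MAFF (1.61) and JUNB (1.40) lead, FOSL2 (-0.27) is at the other end, and the dashed line marks the median of all genes tested (-0.13).

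The same libraries were often the lowest or highest of their group. VC replicate 2 was the lowest VC library for 9 of the 10 members, with FOS as the exception. KO replicate 2, the KO library farthest from VC over all genes, was the highest KO library for 7 of the 10 members, among them all 5 called higher. Without KO replicate 2, 4 members were called higher (JUN, JUNB, MAFF and MAFG) and 0 lower, with log2 fold changes of 0.66 for JUN, 1.28 for JUNB and 1.45 for MAFF. Across the 6 fits without 1 library, the adjusted p of JUN, JUNB and MAFF did not exceed 0.0459, 0.0415 and 0.0412.

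**Figure D3:**
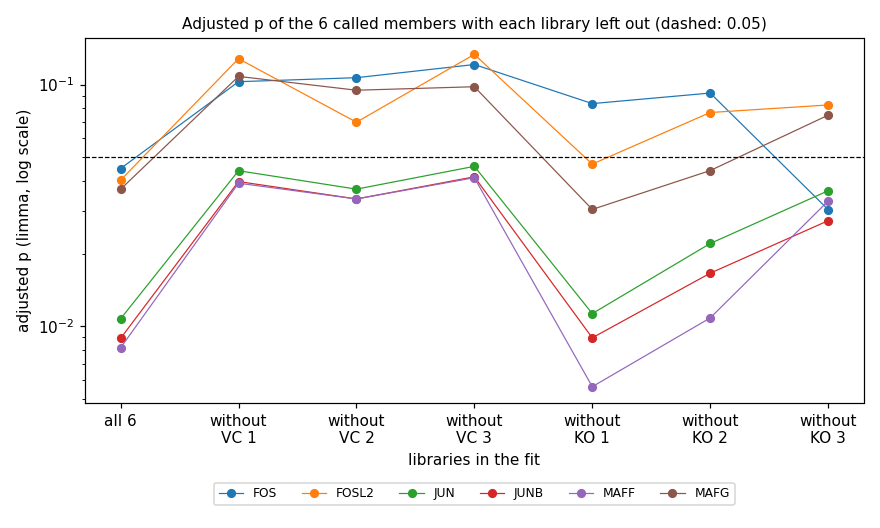
Adjusted p from limma (vertical axis, log scale) for the 6 called members, in the fit to all 6 libraries and with each library left out in turn (horizontal axis). JUN, JUNB and MAFF stay under the dashed line at 0.05 in every fit, whereas FOS, FOSL2 and MAFG cross it.

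By root mean square distance between gene-centred log2 signals over the 6 libraries, in a pool of 9652 genes (mean signal in the upper 50% and 6 values), the pattern of MAFF was nearest to that of SLC3A2 (0.066), BMP2 (0.081) and TBC1D10A (0.081). SLC3A2 had log2 signals of 5.41, 5.31 and 5.37 in VC and 6.65, 7.22 and 6.77 in KO. Like MAFF it was highest in KO replicate 2 and lowest in VC replicate 2. Since SLC3A2 was picked by its closeness to MAFF, this likeness is no separate result. The genes nearest to FOSL2 were PRMT5 (0.028), CLPTM1L (0.029) and LONRF1 (0.030), and PRMT5 had log2 signals of 6.55, 6.49 and 6.57 in VC and 6.21, 6.22 and 6.26 in KO. PRMT5 lost its call with median-centred libraries (adjusted p = 0.0617) and without VC replicates 1, 2 and 3 (0.0887, 0.0556 and 0.0940) or KO replicate 3 (0.0706). CLPTM1L was not called in the fit to all 6 libraries (limma adjusted p = 0.0550).

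Around the 10 members stand other basic leucine zipper genes that pair with them or compete for their sites. Of 15 such genes 14 were tested, 7 were higher in KO and 0 were lower in limma's test (1 lower at an unadjusted p under 0.05, and 0 lower without moderation), with a median log2 fold change of 0.39. The shares over all genes tested were 13.1% higher and 19.8% lower. ATF3, a stress-induced partner of JUN proteins, rose the most, from -0.33, -0.36 and -0.67 in VC to 1.78, 2.19 and 1.13 in KO (log2 fold change 2.16, adjusted p = 0.0107). JDP2, a JUN partner that mostly represses, rose from 0.0021, -0.26 and -0.042 to 1.30, 1.65 and 0.96 (log2 fold change 1.40, adjusted p = 0.0115). Adding 1 to every linear signal lowered the rise of ATF3 to 1.31 and that of JDP2 to 0.85 on the log2 scale. In the 6 fits without 1 library the adjusted p did not exceed 0.0459 for ATF3 and 0.0466 for JDP2. ATF2, BACH1, ATF7, NFE2L1 and NFE2L2 were the other genes called, and the gene lower at an unadjusted p was BACH2. ATF2 and BACH1 kept the call only without KO replicate 1 or KO replicate 2. Their adjusted p was 0.0919 and 0.0855 without VC replicate 1, 0.0660 and 0.0699 without VC replicate 2, 0.0843 and 0.0846 without VC replicate 3 and 0.0806 and 0.0552 without KO replicate 3.

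Of the 3 NFE2L factors of this list, which bind DNA as partners of small MAF proteins, NFE2L1 and NFE2L2 were higher, and NFE2L3 was not called (log2 fold change 0.015, adjusted p = 0.916). NFE2L2 encodes NRF2, the main antioxidant regulator, and had log2 signals of 4.35, 4.45 and 4.37 in VC and 4.87, 5.09 and 4.81 in KO (log2 fold change 0.53, adjusted p = 0.0182). NFE2L1 had 0.42 (adjusted p = 0.0150) and ATF7, which pairs with JUN and FOS proteins, 0.35 (adjusted p = 0.0189). The call of NFE2L2 was lost without VC replicates 1, 2 or 3 (0.0683, 0.0507 and 0.0691), that of NFE2L1 without VC replicate 1, VC replicate 3 or KO replicate 3 (0.0598, 0.0648 and 0.0530), and that of ATF7 without VC replicates 1, 2 or 3 or KO replicate 3 (0.0753, 0.0545, 0.0765 and 0.0575). BATF had values in VC replicates 2 and 3 alone (-5.61 and -5.72) and was not tested.

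Among 26 factors, kinases and ligase components that act on FOS and JUN, all tested, 4 were higher (ELK3, MEF2D, MAPK13 and RPS6KA2) and 5 were lower (MRTFB, RPS6KA1, COPS5, FBXW7 and ITCH) in KO, and the median log2 fold change was 0.13. The 9 called of 26 lie near the 32.9% called among all genes tested. COPS5, a subunit of the COP9 signalosome first known as a JUN coactivator, fell from 5.87, 5.95 and 5.81 in VC to 5.36, 5.21 and 5.31 in KO (log2 fold change -0.58, adjusted p = 0.0112, no higher than 0.0496 in the fits without 1 library). FBXW7, a ubiquitin ligase component that marks c-Jun for degradation, fell by 0.58 (adjusted p = 0.0196). ELK3, an ETS factor that binds with serum response factor, rose by 0.56 (adjusted p = 0.0129), and MRTFB, a coactivator of serum response factor, fell by 0.70 (adjusted p = 0.0158). RPS6KA2, a ribosomal S6 kinase downstream of ERK, rose from 0.90, 0.65 and 0.82 to 1.89, 2.78 and 2.47 (log2 fold change 1.59, adjusted p = 0.0132). With VC replicate 1 dropped, ELK3 had an adjusted p of 0.0542, MRTFB of 0.0600 and FBXW7 of 0.0702, and with VC replicate 3 dropped these were 0.0538, 0.0617 and 0.0661, and RPS6KA2 had 0.0521. Without KO replicate 3 it was 0.0565 for MRTFB and 0.0570 for FBXW7, and without VC replicate 2 0.0602 for FBXW7. The fall of MRTFB was 0.39 on the log2 scale with 1 added to the linear signal. MEF2D lost its call without VC replicate 1 (0.0568), VC replicate 3 (0.0690) or KO replicate 3 (0.0665). ITCH lost it without VC replicates 1, 2 or 3 (0.0677, 0.0575 and 0.0694) or KO replicate 3 (0.0663), as did RPS6KA1 (0.110, 0.0805, 0.113 and 0.0939). MAPK13 kept its call only without KO replicate 1 (0.0233). Its adjusted p was 0.108, 0.0951 and 0.0563 without VC replicates 1, 2 or 3, and 0.102 and 0.110 without KO replicates 2 or 3.

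Of 26 genes known as AP-1 targets, 25 were tested, 19 were higher in KO and 0 were lower (0 lower also at an unadjusted p under 0.05 and without moderation). Of all genes tested, 13.1% were called higher and 19.8% lower. The median log2 fold change of the targets was 1.29, and 16 were called with a change of at least 2-fold, as were 9.53% of all genes tested. The list was chosen with earlier results of these data known, so these values only describe it, and AP-1 activity was not tested. MMP10, an extracellular protease, had log2 signals of -0.72, -0.89 and -1.04 in VC and 2.61, 3.997 and 3.78 in KO, a log2 fold change of 4.34 (adjusted p = 0.00706). The gelatinase MMP9 rose by 2.60 (adjusted p = 0.00763). AREG, an EGF receptor ligand with VC signals of -3.26, -3.15 and -2.60, rose by 3.84 (adjusted p = 0.00675), and by 1.32 with 1 added to the linear signal. MMP1, the interstitial collagenase, went from 9.49, 9.60 and 9.50 to 12.04 in each KO library. That value is the top of the quantile-normalized scale, held by MMP1 in all 3 KO libraries and by RPS2 in all 3 VC libraries, so the log2 fold change of 2.51 (adjusted p = 0.00197) rests on a KO spread of 0. Across the 6 fits without 1 library 14 to 20 targets were called higher, and 14 were called in all of them. DCN had a value in VC replicate 2 alone and was not tested.

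**Figure D4:**
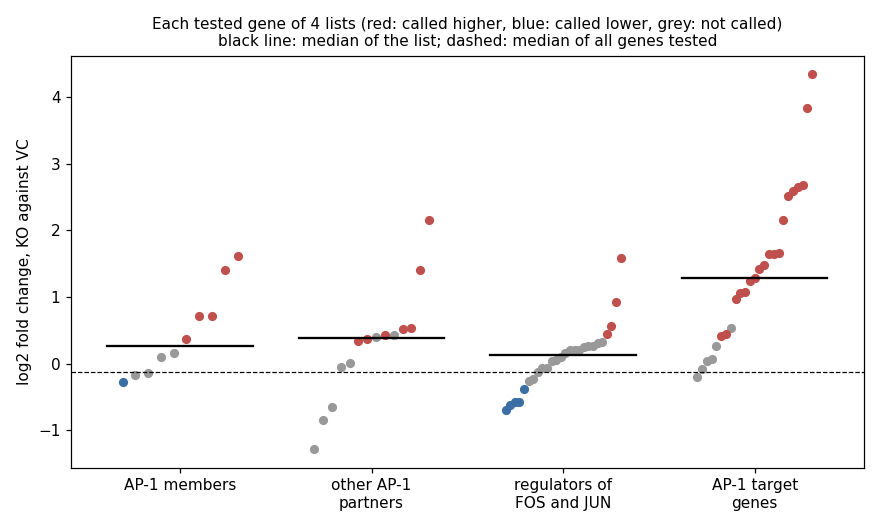
Log2 fold change, KO against VC (vertical axis), of every tested gene of the AP-1 members and of 3 lists of related genes, with the median of each list as a black line and the median of all genes tested dashed. The medians are 0.27 for the members, 0.39 for the partners, 0.13 for the regulators and 1.29 for the targets, against -0.13 for all genes. The members and lists were chosen with earlier results of these data known.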

How the data were processed

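The authors deposited log2 signals per gene symbol, quantile-normalized between the 6 libraries. The submitters' processing notes name CASAVA, STAR, Partek and GRCh38.p13, and the methods name CLC Genomics and Partek software. Versions, annotation and linear unit are not given in the sources used here. No depth could be recovered, and no interval for counting error was computed. Signals were compared in R 4.3.3 with limma 3.58.1 (linear model, empirical Bayes moderation without trend), for the 19306 genes that had 2 or more values per group, with two-sided p-values and Benjamini-Hochberg adjustment over all of them. A gene was called at an adjusted p under 0.05. Differences between family members were compared by exact permutation tests in scipy 1.17.1. Motifs and figures were made with Python 3.11.15. The fit was tested on simulated data. The members and gene lists were chosen with earlier results of these data known. All members are named. From each list, genes were named from the 5 with the smallest adjusted p, plus those without a value in a group, and 3 genes most like MAFF and FOSL2 were added. Overlapping genes and markers were named as context. Genes named to spell out a small count were chosen after their values were seen. Alternatives changed the filter on low signals, the scaling, the value added to the signal, the moderation, a replicate block and the libraries left out. 1 gene of the target list is counted but not reported by name here.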

Additional observations from a re-analysis of the deposited data

How the results depend on the processing

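For JUN, JUNB and MAFF the adjusted p stayed under 0.05 in every alternative without a replicate block. No member changed sign except FOSB, which ranged from -0.078 (without VC replicate 2) to 0.29 (without KO replicate 3) and was -0.057 without KO replicate 2. With a replicate block the count of genes called was 1533 instead of 6354, of members called higher 2 (JUNB and MAFF) and lower 0, of other AP-1 partners 1, of regulators 0 and of targets 13. With the block JUN had a limma adjusted p of 0.0537. Whether the numbers pair the samples is not known. The deviations of same-numbered libraries from their group means had Pearson's r of 0.0226, 0.00509 and -0.00736 across genes. KO replicates 1 and 2 correlated best with the VC library of their own number, and KO replicate 3 with VC replicate 2 (0.0314). Values this small cannot settle whether the samples were paired. Without moderation 3 members were called higher, and with median-centred libraries 0 were lower. The regulators called were 15 in the upper 50% of mean signal, 16 with 1 added to the linear signal and 15 with trend and robust moderation, instead of 9. With single libraries left out, the genes called ranged from 1223 to 8669, members higher from 3 to 4 and lower from 0 to 2, other partners from 2 to 9, regulators from 1 to 12 and targets from 14 to 20. Adding 1 to the linear signal shrank the changes of AREG, MRTFB, ATF3 and JDP2 by over 1.5 times and moved the median of all genes from -0.13 to -0.023, and relative to these medians the directions given for the called members held. The causes of these shifts were not tested. Depth is unknown, so low signals such as those of FOSB and CNTNAP4 have no counting error attached.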
